A study of Oryza sativa with 12 samples.

Results

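This comparison sets the roots of the f3h rice line against its leaves, by RNA-seq, across all expressed genes. It rests on 6 of the 12 libraries of the study, 3 of f3h leaf and 3 of f3h root, and of the 37960 genes counted it tested the 24822 that passed a filter on low counts. The plants were rice seedlings (Oryza sativa) that were 1 month old, grown hydroponically in Kimura solution at 28 °C with 12 h of light and 12 h of dark. The line is named after flavanone 3-hydroxylase (F3H), an enzyme of flavonoid synthesis. The labels call it a knockdown and the design text calls the material CRISPR mutants, and neither names the locus targeted or says how many independent lines were used. Wild type (WT) seedlings of the cultivar ZH11, grown the same way, gave the other 6 libraries, 3 of leaf and 3 of root, and the labels give no further treatment for either genotype. Their organ comparison shares no library with that of f3h and is set beside it. Whether a group's libraries are of separate plants, of pools or of repeated preparations is not stated, and a p-value here covers only their own spread, which may be technical.

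Leaves and roots of a grass seedling share a genome but have opposite parts in its economy. Mesophyll cells of the leaf build chloroplasts, fix carbon in the Calvin cycle, recycle the glycolate that Rubisco makes when it takes up oxygen, and export sucrose. Root cells live on that sucrose, take up minerals and water through transporters of the epidermis, exodermis and endodermis, seal the endodermis with the Casparian strip, divide at the root tip and, in rice, are adapted to standing in water that holds little oxygen. In bulk tissue, fewer cells of a type and less RNA per cell cannot be told apart.

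Levels are given as CPM, the counts of a gene divided by the total of its library and multiplied by 1000000. The f3h leaf libraries held 36769588, 32314230 and 37821918 counts and the f3h root libraries 25804026, 27917598 and 23740780. Log2 fold changes are root against leaf, positive where root was higher, from edgeR's quasi-likelihood test with TMM normalization, given with their standard error and with Benjamini-Hochberg adjustment over all genes tested. A gene was called where the adjusted p was below 0.05 and the log2 fold change at least 1 in size. The 10 genes with the most counts took 8.53% to 8.70% of the counts of an f3h leaf library and 5.08% to 5.11% of an f3h root library, and TMM normalization scaled the organs apart, so that a log2 fold change lies 0.66 below that on the scale of library totals, to which the CPM values belong. A gene with somewhat more CPM in root can for this reason have a log2 fold change just below 0. Levels of different genes cannot be ranked, because gene lengths were not used here. Among the 12 libraries WT leaf replicate 1 stood apart from its replicates (r of log2 CPM 0.990 and 0.989 with them, and 0.997 between them), which touches the WT values and the test of the difference between genotypes but no value of f3h.

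Of the loci listed as F3H genes, Os10g0536400 stood at 87.7, 81.4 and 86.8 CPM in the f3h leaf libraries and at 31.9, 35.2 and 33.1 CPM in the root libraries. It was called higher in leaf (log2 -2.01 ± 0.07), and in WT it was also higher in leaf (log2 -1.17). Os03g0122300 stood at 25.6, 22.5 and 23.6 CPM in f3h leaf and 76.6, 75.1 and 70.0 CPM in f3h root and missed the limit of size (log2 0.97 ± 0.08). Os04g0667200 was at 0.0544, 0 and 0.0529 CPM in leaf and 1.47, 0.573 and 0.758 CPM in root, and Os04g0662600 had 2 counts in all in f3h leaf and none in f3h root. None of these 4 names could be checked in the reference, and an RNA level does not check an edited gene, which can still be transcribed.

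The organs differed in most of the genes tested. In f3h 7147 genes were called higher in root (28.8%) and 5954 higher in leaf (24%), together 52.8% of the 24822 tested, and these shares are the background for the counts of list members below. On the scale of library totals the split was 10439 to 4278. The median log2 fold change over all genes was 0.08 and the median size 1.14. Differences of at least 5 on the log2 scale were called for 1987 genes higher in root (8%) and 1418 higher in leaf (5.71%). The libraries of the organs did not overlap in CPM for 86.1% of the genes. The filter asks for 0.332 CPM in 3 libraries, and a gene that reached this in 1 organ alone had to differ, so that list members that reached it in every library of both organs are counted separately below. With at least 1 CPM in each library of an organ and no count in the other, 522 genes were seen in f3h root alone and 225 in f3h leaf alone, and at 100 CPM there were 10 and 2 such genes.

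**Figure D1:**
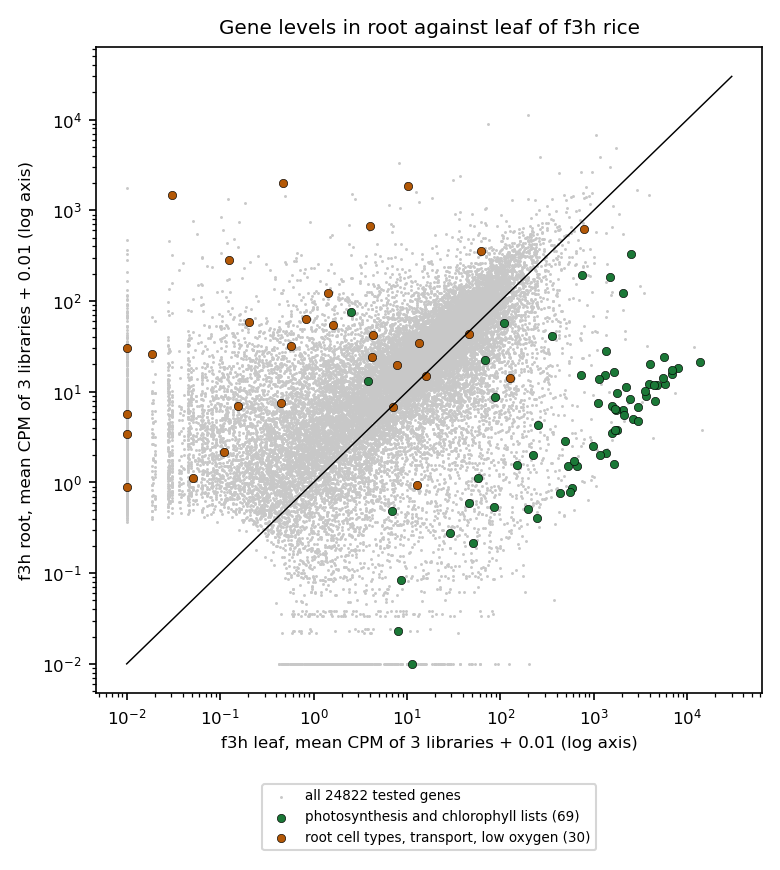
Mean CPM (plus 0.01) of each of the 24822 tested genes in f3h leaf (horizontal log axis) and f3h root (vertical log axis), 3 libraries each, with the line of equal CPM. The 69 members of the photosynthesis, photorespiration and chlorophyll lists (green) lie below the line except for 2, and members of the lists for root cell types, transport and low oxygen (orange) lie mostly above it.

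Among the lists with at least 5 tested genes, organelle genes apart, those of photosynthesis were the most uneven by median log2 fold change. The 2 tested auxin efflux genes had a median of 9.51, or 8.29 with a member without a count in leaf set to its bound. All 13 genes of the light harvesting list, which encode the proteins that bind chlorophyll in the antennae, and all 18 genes of the photosystems and electron transport list were called higher in f3h leaf, against 24% of all genes. This held for the 11 and the 15 of them that reached the filter's limit in both organs. Their median log2 fold changes were -9.17 and -9.26, the latter -9.15 with a member that had no count in root set to its bound. The antenna gene CAB1R (Os09g0346500) stood at 8081, 8137 and 7970.1 CPM in the leaf libraries and 20.1, 17.5 and 16.6 CPM in the root libraries (log2 -9.46 ± 0.08, adjusted p = 6.06e-20). CAB2R (Os01g0600900) stood at 5735, 5762 and 5652 CPM in leaf and 24, 25.8 and 23.1 CPM in root (log2 -8.54 ± 0.06). Every leaf library lay above every root library for both genes, and the replicates of an organ lay close together.

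RCABP89 (Os03g0592500) and RCABP69 (Os07g0562700), further chlorophyll a/b-binding protein genes, had log2 fold changes of -9.44 ± 0.08 and -8.84 ± 0.12. Genes of this family are near copies of each other and may share reads, which leaves the value of each copy uncertain. Plastocyanin, the copper protein that carries electrons to photosystem I, is encoded by PETE (Os06g0101600), which stood at 4534, 4722 and 4297 CPM in leaf and 7.91, 8.31 and 7.75 CPM in root (log2 -9.80 ± 0.08). A ferredoxin gene (Os08g0104600), whose product takes electrons from photosystem I, stood at 1296, 1401 and 1312 CPM in leaf and 2.13, 1.72 and 2.53 CPM in root (log2 -9.97 ± 0.09). PSAH (Os05g0560000), a photosystem I subunit, and OEE3 (Os07g0544800), an oxygen-evolving enhancer protein of photosystem II, had log2 fold changes of -8.76 and -8.27. Among the members with counts in root the log2 fold changes ran from -10.11 to -7.09. Os02g0103800 had no count in root and was at least 291-fold higher in leaf.

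Of the Rubisco and Calvin cycle list, 12 of 13 genes were higher in leaf and 1 in root, with a median log2 fold change of -9.82. Among the 12 that reached the filter's limit in both organs 11 were higher in leaf and 1 in root. RCA (Os11g0707000), Rubisco activase, which keeps the carbon fixing enzyme working, stood at 13594, 13772 and 13757 CPM in leaf and 21.5, 20.6 and 21.9 CPM in root (log2 -9.99 ± 0.06, adjusted p = 1.64e-20). FBPase (Os03g0267300), a fructose bisphosphatase, stood at 435, 439 and 423 CPM in leaf and 1.09, 0.358 and 0.842 CPM in root (log2 -9.82 ± 0.12), and the aldolase gene ALDP (Os11g0171300) had a log2 fold change of -9.27 ± 0.10. The member that was higher in root had no checked name and a log2 fold change of 1.15.

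Photorespiration and chlorophyll synthesis were less extreme, and some of their enzymes also had transcripts in root. In photorespiration 12 of 13 genes were higher in leaf (median -7.30), and 11 of the 12 that reached the filter's limit in both organs. The glycolate oxidase genes of this list differed among themselves. GLO1 (Os03g0786100) stood at 639, 673 and 661 CPM in leaf and 1.59, 1.97 and 1.01 CPM in root (log2 -9.39 ± 0.10), GLO4 (Os07g0616500) at 108, 113 and 112 CPM in leaf and 52.7, 60.0 and 58.9 CPM in root (log2 -1.62 ± 0.06, -0.95 and no longer called on the scale of library totals), and GLO3 (Os04g0623500) the other way, at 1.79, 3.09 and 2.64 CPM in leaf and 78.8, 76.8 and 73.6 CPM in root (log2 4.27 ± 0.14). GLO3 was the only gene of the list that was higher in root. The plastid glutamine synthetase gene GLN2 (Os04g0659100), which catches the ammonium set free in photorespiration, had a log2 fold change of -7.31 ± 0.08, and the ferredoxin-dependent glutamate synthase gene Fd-GOGAT (Os07g0658400) kept 128, 114 and 128 CPM in root against 2045, 1981 and 2081 CPM in leaf (log2 -4.71 ± 0.06).

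All 12 genes of chlorophyll synthesis were higher in leaf, by between -9.20 and -2.27 on the log2 scale. This held for the 10 of them that reached the filter's limit in both organs. PORB (Os10g0496900), which encodes the protochlorophyllide reductase that works in the light, stood at 624, 601 and 631 CPM in leaf and 1.01, 1.22 and 2.86 CPM in root (log2 -9.20 ± 0.15). CHLH (Os03g0323200), a subunit of the magnesium chelatase, had a log2 fold change of -7.84, and CAO (Os10g0567400), the enzyme that makes chlorophyll b, one of -6.24. GSA (Os08g0532200), an aminotransferase of the early part of the pathway that also serves haem, stood at 356, 362 and 364 CPM in leaf and 40.5, 41.6 and 41.2 CPM in root (log2 -3.79 ± 0.05).

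Leaf transcripts were low but present in f3h root. The 13 light harvesting genes summed to 148 to 158 CPM in the f3h root libraries, 50015 to 52471 in the f3h leaf libraries and 17.2 to 19.1 in the WT root libraries. Their root level was 0.209% to 0.509% of the leaf level in f3h, with a median of 0.273%, and 0.00357% to 0.229% in WT, with a median of 0.0108%. Of the 1292 genes with at least 100 CPM in the leaf of both genotypes, 110 were chosen because their WT root level was below 0.1% of the WT leaf level, and in f3h the root level of these was 0.237% of the leaf level at the median, with quartiles of 0.188% and 0.297% and extremes of 0.0268% and 1.67%. Of the 110, 36 belong to the 5 lists of photosynthesis, photorespiration and chlorophyll, with a median of 0.231%, and 73 to no list, with a median of 0.237% and quartiles of 0.195% and 0.301%. Genes with at least 100 CPM in f3h leaf and no count at all in f3h root were Os02g0206100 and Os12g0516000, both without a name here. The part that leaf RNA in the root libraries has in these levels was not tested.

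**Figure D2:**
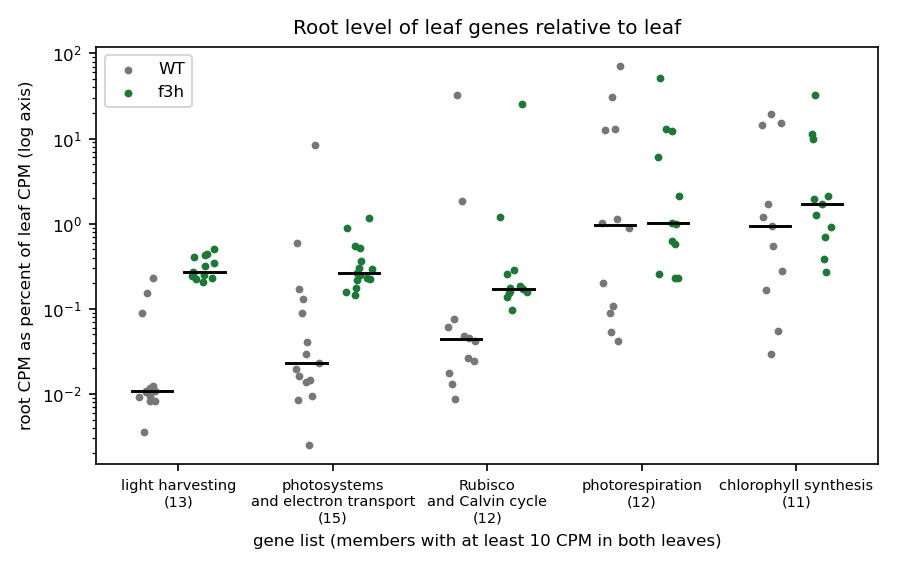
Root CPM as a percentage of leaf CPM (log axis) for members of 5 leaf lists with at least 10 CPM in the leaf of both genotypes, in WT (grey) and f3h (green), each point 1 gene from means of 3 libraries and each bar a list median. In f3h the light harvesting genes lie between 0.209% and 0.509%, and in WT most lie near 0.01%.

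Sugar genes were divided by organ. In the sucrose and starch list 9 of 13 genes were higher in f3h leaf and 3 higher in root. Among the 11 that reached the filter's limit in both organs 8 were higher in leaf and 2 in root. The 3 higher in root were genes of sucrose breakdown: the sucrose synthases SUS1 (Os03g0401300) and SUS2 (Os06g0194900) and the cell wall invertase CIN2 (Os04g0413500). The other sucrose synthases of the list, SUS3 and SUS4, and the invertase CIN1 were not among them, so this direction was not shared by all genes of sucrose breakdown. SUS1 stood at 8.92, 8.60 and 8.17 CPM in leaf and 436, 424 and 425 CPM in root (log2 4.98 ± 0.06), and SUS2 at 24.9, 25 and 25.6 CPM in leaf and 147, 136 and 139 CPM in root (log2 1.82 ± 0.06). CIN2 had no count in 2 leaf libraries and 0.159 CPM in the other, and stood at 90.0, 90.1 and 88.5 CPM in root (log2 9.90 ± 0.25). The vacuolar sucrose transporter gene SUT2 (Os12g0641400) was higher in leaf (log2 -2.02 ± 0.07).

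Most genes that define root cell types had few or no counts in f3h leaf. Of the 15 genes of this list 13 were tested, 8 of which reached the filter's limit in root alone, which fixes their direction. Of the 5 that reached it in both organs 2 were higher in root, none was higher in leaf and 3 were not called. CASP1 (Os04g0684300), a protein of the Casparian strip in the endodermis, stood at 24.4, 28.0 and 26.3 CPM in root and had 1 count over the 3 leaf libraries, a ratio of 2809.9 with an exact 95% counting interval of 504 to 111038. SHR1 (Os07g0586900) and SHR2 (Os03g0433200), regulators that act in the patterning of the endodermis, stood at 58.2, 59.9 and 58.8 and at 32.8, 30.7 and 31.6 CPM in root, and both stayed below 0.8 CPM in every leaf library (log2 7.61 ± 0.21 and 5.17 ± 0.20). SCR1 (Os11g0124300), their partner, was not called, at 14.7, 16.8 and 16.4 CPM in leaf and 16.9, 12.8 and 15.5 CPM in root. WOX11 (Os07g0684900), a regulator of crown root growth, had no count in f3h leaf and stood at 32.3, 31.6 and 27.9 CPM in root, at least 1094-fold higher with a floor of 3 counts over the group. The expansin gene EXPA8 (Os01g0248900) also had no count in leaf and was at least 207-fold higher in root. The markers as a list summed to 520.1 to 541 CPM in f3h root and 70.3 to 74.6 CPM in f3h leaf.

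Among the 5 auxin efflux carriers 2 were tested, both of which reached the filter's limit in root alone. PIN9 (Os01g0802700) had no count in f3h leaf and 32.5, 33.6 and 35.1 CPM in root, at least 1201-fold higher. PIN1C (Os06g0232300) had a log2 fold change of 6.36 ± 0.36. PIN10A (Os01g0643300) and PIN2 (Os06g0660200) stayed below 0.5 CPM in every f3h library and were not tested.

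Uptake of silicon, which rice stores in large amounts, set the largest difference among the named genes. The efflux transporter gene LSI2 (Os03g0107300) stood at 1476, 1485 and 1467 CPM in root and had 2 counts over the 3 leaf libraries, a ratio of 78919 with an exact 95% counting interval of 21846 to 651666. The influx channel gene LSI1 (Os02g0745100) stood at 1844, 1834 and 1893 CPM in root and 11.6, 10.3 and 8.86 CPM in leaf (log2 6.84 ± 0.08, adjusted p = 1.36e-18). LSI6 (Os06g0228200), which unloads silicon from the xylem in leaves, went the other way, at 126, 125 and 126 CPM in leaf and 13.8, 15.4 and 12.8 CPM in root (log2 -3.82 ± 0.07). Of the list of silicon, metal and potassium transport, 7 of 11 tested genes were higher in root and 2 higher in leaf. Among the 10 that reached the filter's limit in both organs 6 were higher in root and 2 in leaf. NRAMP5 (Os07g0257200), the manganese and cadmium uptake transporter, was among the former (log2 5.77 ± 0.12), and the potassium transporter gene HAK5 (Os01g0930400) was the other member higher in leaf, at 13.7, 14.2 and 10.4 CPM against 0.969, 0.501 and 1.35 CPM in root.

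**Figure D3:**
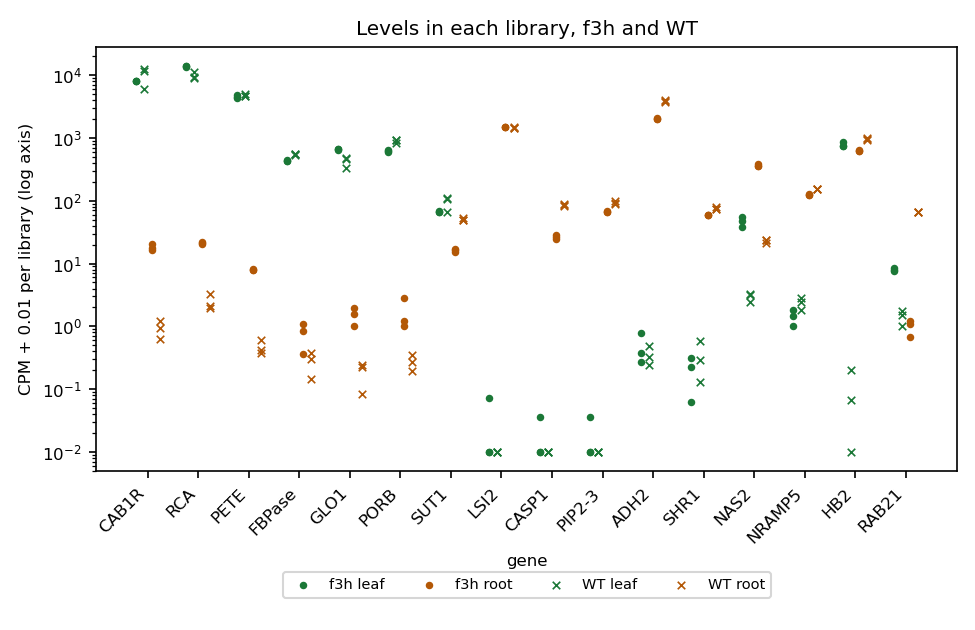
CPM (plus 0.01, log axis) of 16 genes in each library of f3h (filled points) and WT (crosses), leaf in green and root in orange. LSI2, CASP1 and PIP2-3 have at most 2 counts in f3h leaf, while CAB1R and RCA lie near 20 CPM in f3h root.

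Iron uptake genes were spread over both organs. Of 20 genes 11 were higher in f3h root and 6 higher in leaf, and of the 15 that reached the filter's limit in both organs 6 and 6. NAS2 (Os03g0307200), a nicotianamine synthase at the start of phytosiderophore synthesis, stood at 55.3, 38.8 and 47.5 CPM in leaf and 382, 356 and 353 CPM in root (log2 2.28 ± 0.09). It neighbours a near copy with which it may share reads. The metal transporters YSL2 (Os02g0649900) and NRAMP1 (Os07g0258400) were higher in leaf, with YSL2 at 793, 729 and 797 CPM in leaf and 229, 244 and 242 CPM in root (log2 -2.36 ± 0.05) and NRAMP1 at a log2 fold change of -1.69 ± 0.06. IRO3 (Os03g0379300), a regulator of iron responses, was not called (log2 -0.51 ± 0.06, 0.15 on the scale of library totals).

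For nitrogen, 4 of 17 tested genes were higher in root and 7 higher in leaf, and of the 12 that reached the filter's limit in both organs none and 6. Nitrate reductase NIA1 (Os08g0468100) stood at 249, 261 and 284 CPM in leaf and 4.53, 5.66 and 5.39 CPM in root (log2 -6.33 ± 0.08). The cytosolic glutamine synthetases differed: GLN1;1 (Os02g0735200) and GLN1;2 (Os03g0223400) were not called (log2 -0.84 ± 0.05 and 0.92 ± 0.06, the latter 1.22 with upper quartile normalization and 1.58 on library totals and called in both), and GLN1;3 (Os03g0712800) was higher in root at 5.23, 5.23 and 3.20 CPM against 0.272, 0.124 and 0 CPM in leaf. The ammonium transporter gene AMT1;1 (Os04g0509600) was higher in leaf (log2 -3.49 ± 0.10), and AMT1;3 (Os02g0620600), low in both organs, higher in root (log2 1.81 ± 0.49).

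For phosphate, 3 of 14 genes were higher in root and 7 higher in leaf, and of the 11 that reached the filter's limit in both organs 1 and 6. PHO1;2 (Os02g0809800), which loads phosphate into the xylem, stood at 11, 12.5 and 10.8 CPM in leaf and 339, 335 and 344 CPM in root (log2 4.23 ± 0.07). The uptake transporter gene PHT1;6 (Os08g0564000) had no count in f3h leaf and was at least 46.0-fold higher in root. PHT1;1 (Os03g0150600) and the central regulators PHR1 (Os03g0329900) and PHR2 (Os07g0438800) were not called, with log2 fold changes of 0.46 ± 0.07, -0.23 ± 0.07 and -0.39 ± 0.07, of which those of PHR1 and PHR2 turn positive on the scale of library totals (0.43 and 0.27) while PHT1;1 is called there (1.12).

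Aquaporins, the water channels, were higher in root for 5 and higher in leaf for 5 of 14 tested genes, and for 2 and 5 of the 11 that reached the filter's limit in both organs. PIP2-3 (Os04g0521100) stood at 65.1, 65.7 and 67.3 CPM in root and had 1 count in leaf, a ratio of 7055 with an exact 95% counting interval of 1266 to 278714. The tonoplast channel gene TIP1-2 (Os01g0975900) stood at 1521, 1542 and 1481 CPM in leaf and 119.7, 119 and 112 CPM in root (log2 -4.36 ± 0.05). The plasma membrane channels PIP1-1 (Os02g0666200) and PIP2-1 (Os07g0448800) and the tonoplast channel TIP2-2 (Os06g0336200) were present in both organs without a call (log2 -0.74, -0.61 and 0.36, with PIP2-1 at 0.05 and TIP2-2 at 1.02 and called higher in root on the scale of library totals).

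Genes of fermentation and haemoglobins were mostly higher in root. Of the 6 genes of the low oxygen list 5 were called higher in f3h root, 3 of which reached the filter's limit in root alone, and the list summed to 3638 to 3705 CPM in root and 808 to 909.6 CPM in leaf. Most of the leaf sum was that of HB2, the member not called higher in root. The median log2 fold change was 5.21, and 4.34 with PDC1, a pyruvate decarboxylase gene that had no count in leaf and was at least 31.3-fold higher in root, set to that bound. The alcohol dehydrogenase gene ADH2 (Os11g0210500) stood at 2035, 2016 and 1996 CPM in root and below 0.8 CPM in each leaf library (log2 11.40 ± 0.12, adjusted p = 3.79e-19). ADH1 (Os11g0210300) stood at 61.1, 61.0 and 64.2 CPM in leaf and 359, 344 and 357 CPM in root (log2 1.85 ± 0.05). The nonsymbiotic haemoglobin gene HB1 (Os03g0233900) stood at 4.68, 3.44 and 4.05 CPM in leaf and 676, 687 and 665 CPM in root (log2 6.71 ± 0.08). The exception was HB2 (Os03g0226200), another haemoglobin gene, at 749, 845 and 739 CPM in leaf and 633, 614 and 616 CPM in root, which lay just inside the limit of size (log2 -0.99 ± 0.06) and was called higher in leaf when f3h leaf replicate 1 or 3 or f3h root replicate 1 was left out.

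Diterpenoid phytoalexins, the antimicrobial compounds of rice, had synthesis genes that were low in one organ or the other. Of 9 tested genes 7 were higher in f3h root and 2 higher in leaf, but 5 and 2 of them reached the filter's limit in that organ alone. CPS4 (Os04g0178300), the copalyl diphosphate synthase of momilactone synthesis, stood at 0.163, 0.0619 and 0.212 CPM in leaf and 9.998, 8.70 and 8.34 CPM in root (log2 5.23 ± 0.36). MAS (Os04g0179200), the dehydrogenase of the same pathway, had a log2 fold change of 5.87 ± 0.56 and the cytochrome P450 gene CYP76M8 (Os02g0569400) one of 6.09 ± 0.52. The P450 gene CYP99A3 (Os04g0178400) passed only narrowly (adjusted p = 0.0428), at 5.04, 1.90 and 1.68 CPM in root, and its call was lost without f3h root replicate 1 (log2 0.39) and without any of the 3 f3h leaf replicates. CPS2 (Os02g0571100), a synthase of another branch, was higher in leaf (log2 -3.10 ± 0.64) at 1.99, 2.72 and 1.56 CPM.

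Phenylpropanoid and lignin genes had no common direction in f3h. Of 14 tested genes 5 were higher in root, 2 higher in leaf and 7 not called. Among the 12 that reached the filter's limit in both organs 3 were higher in root and 2 in leaf. On the scale of library totals 11 genes of the whole list were higher in root and none in leaf. Without f3h root replicate 2 there were 4 higher in leaf. CAD2 (Os02g0187800), an alcohol dehydrogenase of the last step of lignin monomer synthesis, stood at 31.3, 34.2 and 34.2 CPM in leaf and 306, 319 and 314 CPM in root (log2 2.58 ± 0.06). COMT1 (Os08g0157500), a methyltransferase, HCT1 (Os04g0500700), an acyltransferase, and the ligase gene 4CL3 (Os02g0177600) were not called, with log2 fold changes of 0.39 ± 0.04, 0.50 ± 0.05 and 0.60 ± 0.05, and were called on library totals (1.05, 1.16 and 1.26). The ligase gene 4CL4 (Os06g0656500) was higher in leaf (log2 -1.42 ± 0.18, -0.76 on the scale of library totals). In flavonoid synthesis 5 of 8 tested genes were higher in leaf and 1 in root. Without f3h leaf replicate 1 or f3h root replicate 3, with upper quartile normalization and on library totals 2 were higher in root. Of the 5 that reached the filter's limit in both organs 3 were higher in leaf and none in root. Chalcone synthase CHS1 (Os11g0530600), the first enzyme of the pathway, stood at 23.3, 25.3 and 26.2 CPM in leaf and 0.233, 0.251 and 0.253 CPM in root (log2 -7.30 ± 0.19), and chalcone isomerase CHI (Os03g0819600) at 158, 156 and 147 CPM in leaf and 55.6, 55.5 and 45.9 CPM in root (log2 -2.22 ± 0.07).

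**Figure D4:**
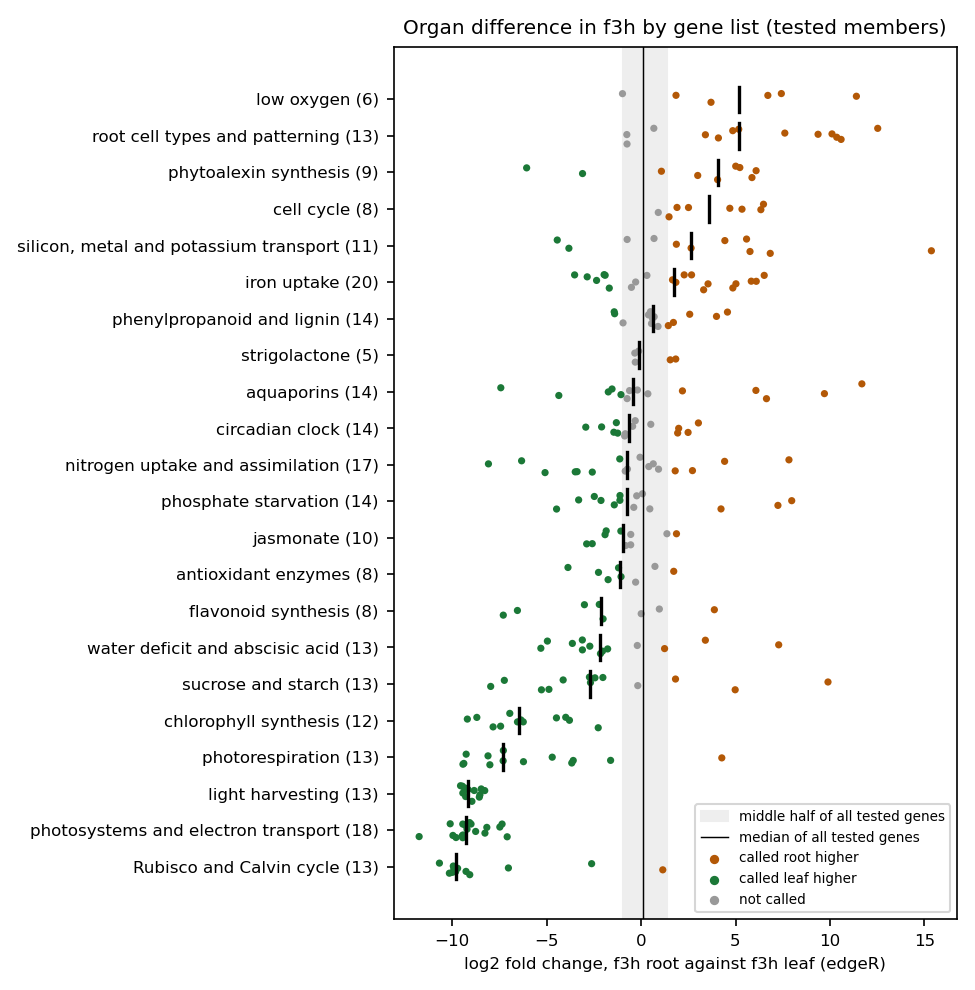
Log2 fold change of f3h root against f3h leaf (edgeR, 3 libraries an organ) for the tested members of the lists with at least 5 of them, lists ordered by their median (black bars), with the number tested in brackets. Orange points were called higher in root, green higher in leaf and grey points were not called. The medians run from -9.82 for the Rubisco and Calvin cycle list to 5.21 for the low oxygen list, and the median of all genes is at 0.08.

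Cell cycle genes were higher in root for 7 of 8, 3 of which reached the filter's limit in root alone, and for 4 of the 5 that reached it in both organs. The mitotic genes CYCB1;1 (Os01g0805600), a cyclin, at 0.435, 0.371 and 0.264 CPM in leaf and 48.8, 44.8 and 44.6 CPM in root, and CDKB2;1 (Os08g0512600), a kinase, had log2 fold changes of 6.34 ± 0.17 and 5.34 ± 0.25. PCNA (Os02g0805200), the sliding clamp of DNA replication, was at 1.90 ± 0.07, and the kinase gene CDKB1;1 (Os01g0897000) was not called (log2 0.91 ± 0.13, but called at 1.04 without f3h leaf replicate 1, at 1.20 with upper quartile normalization and at 1.57 on library totals). Of the strigolactone genes 2 of 5 tested were higher in root (4 without f3h root replicate 2), among them the biosynthesis gene CCD7 (Os04g0550600) at a log2 fold change of 1.54 ± 0.22. CCD8B (Os01g0746400), the next enzyme, stayed at or below 1.09 CPM and was not tested. The receptor gene D14 (Os03g0203200) and the F-box gene D3 (Os06g0154200) were at -0.13 and -0.31, and at 0.53 and 0.35 on the scale of library totals.

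Clock genes showed no common direction, with 4 of 14 higher in root and 5 higher in leaf. Among the 13 that reached the filter's limit in both organs 3 were higher in root and 5 in leaf. The morning gene LHY (Os08g0157600) stood at 903, 888 and 937 CPM in leaf and 189, 191 and 185 CPM in root (log2 -2.93 ± 0.05), and the pseudo-response regulators PRR95 (Os09g0532400) and PRR73 (Os03g0284100) were also higher in leaf (log2 -2.09 ± 0.05 and -1.24 ± 0.07, the latter -0.58 and not called on the scale of library totals). The evening regulator PRR1 (Os02g0618200) stood at 15.1, 15.4 and 15.4 CPM in leaf and 85.4, 98.2 and 94.1 CPM in root (log2 1.94 ± 0.08), PCL1 (Os01g0971800) was low and higher in root (log2 1.99 ± 0.60), and GI (Os01g0182600) was not called (log2 -0.31 ± 0.04, 0.35 on the scale of library totals). The time of day of sampling is not given in the sources used here. Of the 6 genes of photoperiod flowering, only DTH8 (Os08g0174500) was high enough to be tested and it was not called (log2 -0.95 ± 0.25), but it was called higher in leaf without f3h leaf replicate 1 (log2 -1.14) or without f3h root replicate 3 (log2 -1.10). The number of genes of this list called higher in leaf, 0 as reported, was 1 without f3h leaf replicate 1 or 2 or f3h root replicate 1 or 2, 3 without f3h root replicate 3, 3 with no filter and 4 with all 12 libraries in 1 fit. The florigen gene HD3A (Os06g0157700) stood at 0.354, 0.433 and 0 CPM in f3h leaf, and HD1 (Os06g0275000) had no count in f3h.

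Transcripts of water deficit and abscisic acid responses were higher in f3h leaf for 9 of 13 tested genes, with 3 higher in root, and for 4 and 2 of the 7 that reached the filter's limit in both organs. LEA3 (Os05g0542500), a late embryogenesis abundant protein, stood at 13.8, 10.7 and 11.1 CPM in leaf and 0.271, 0.466 and 1.10 CPM in root (log2 -4.96 ± 0.31). The dehydrin gene RAB21 (Os11g0454300) stood at 7.78, 8.32 and 7.69 CPM in leaf and 1.09, 1.22 and 0.674 CPM in root (log2 -3.64 ± 0.25), and the regulator BZIP23 (Os02g0766700) had a log2 fold change of -2.72 ± 0.10. Those higher in root included the lectin gene SALT (Os01g0348900), at 148, 141 and 144 CPM in root against 0.381, 0.866 and 0.529 CPM in leaf (log2 7.29 ± 0.13), and the cold response regulator DREB1A (Os09g0522200), with a log2 fold change of 1.24 ± 0.36. The proline synthesis gene P5CS1 (Os05g0455500) was not called (log2 -0.20 ± 0.05, 0.46 on the scale of library totals).

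Of the jasmonate genes 5 of 10 were higher in leaf and 1 in root. Among the 9 that reached the filter's limit in both organs 5 were higher in leaf and 1 in root. GH3.5 (Os05g0586200), which joins jasmonate to isoleucine, stood at 251, 237 and 246 CPM in leaf and 54.8, 51.4 and 51.1 CPM in root (log2 -2.88 ± 0.05), the biosynthesis gene AOC (Os03g0438100) was higher in leaf by a small margin (log2 -1.07 ± 0.05, -0.41 on the scale of library totals), and CYP74A2 (Os03g0225900), an allene oxide synthase, was higher in root (log2 1.87 ± 0.26). TIFY10B (Os07g0615200), a repressor, and OPR7 (Os08g0459600), a reductase, were not called (log2 -0.55 and -0.55, both at 0.11 on the scale of library totals). Of the antioxidant enzymes 5 of 8 were higher in leaf and 1 in root. The catalases were split, with CATA (Os02g0115700) at 818, 873 and 830.5 CPM in leaf and 89.9, 94.2 and 88.0 CPM in root (log2 -3.87 ± 0.05) and CATB (Os06g0727200) at 101, 103 and 105 CPM in leaf and 532, 539 and 548 CPM in root (log2 1.73 ± 0.05). The ascorbate peroxidase gene APX2 (Os07g0694700) was higher in leaf (log2 -1.75 ± 0.05) and APX1 (Os03g0285700) was not called (log2 0.73 ± 0.05), but was called higher in root with upper quartile normalization (log2 1.03) and on the scale of library totals (log2 1.395). The superoxide dismutase gene SODCC1 (Os03g0351500) was higher in leaf at the edge of the limit (log2 -1.06 ± 0.05, -0.40 on the scale of library totals).

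Of the organelle genes few were counted, in libraries made with an mRNA kit. Of 42 plastid genes 5 were tested and of 46 mitochondrial genes 9, the former having reached the filter's limit in leaf alone and the latter in root alone, so that their direction was set by the filter. The plastid gene psaC, for a photosystem I subunit, stood at 25.8, 27.1 and 28.0 CPM in leaf and had no count in root, at least 697-fold higher in leaf. The 46 mitochondrial genes summed to 16.5 to 18.1 CPM in f3h root, 0.555 to 0.571 CPM in f3h leaf and 0.539 to 1.72 CPM in WT root. Some loci with high counts were without a name here. Those with the most counts among them were, in leaf, Os09g0537700, at 14429, 14193 and 14117 CPM against 2.91, 3.08 and 5.48 CPM in root (log2 -12.54 ± 0.13), and Os12g0559200, at 12291, 11211 and 12164 CPM against 26.9, 31.3 and 34.5 CPM in root. In root they were Os05g0114700, at 10817, 11154 and 11369.8 CPM against 202, 197 and 198 CPM in leaf (log2 5.14 ± 0.05), and Os01g0975300, at 8700.2, 8838 and 9095 CPM against 72.7, 76.1 and 70.4 CPM in leaf.

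Most organ differences of f3h were also found in WT, where 13325 of 25229 genes were called (52.8%), 7548 higher in root (29.9%) and 5777 higher in leaf (22.9%). Of the genes tested in both genotypes, 5541 were called higher in root in both, which is 77.5% of the f3h calls in that direction and 73.4% of those of WT, and 4493 higher in leaf in both, 75.5% and 77.8%. An interaction term on all 12 libraries then tested where the organ difference of f3h differed from that of WT, with no limit of size. It passed for 8806 of 26328 genes (33.4%), with the log2 fold change of root against leaf more positive in f3h for 4214 (16%) and more negative for 4592 (17.4%). Without WT leaf replicate 1 these were 5041 and 5543. Opposite calls in the genotypes were rare: 58 genes were higher in root in f3h and higher in leaf in WT, and 160 the reverse. All 218 passed the interaction, which was largely set by their choice, since calls in opposite directions on the same libraries already differ.

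**Figure D5:**
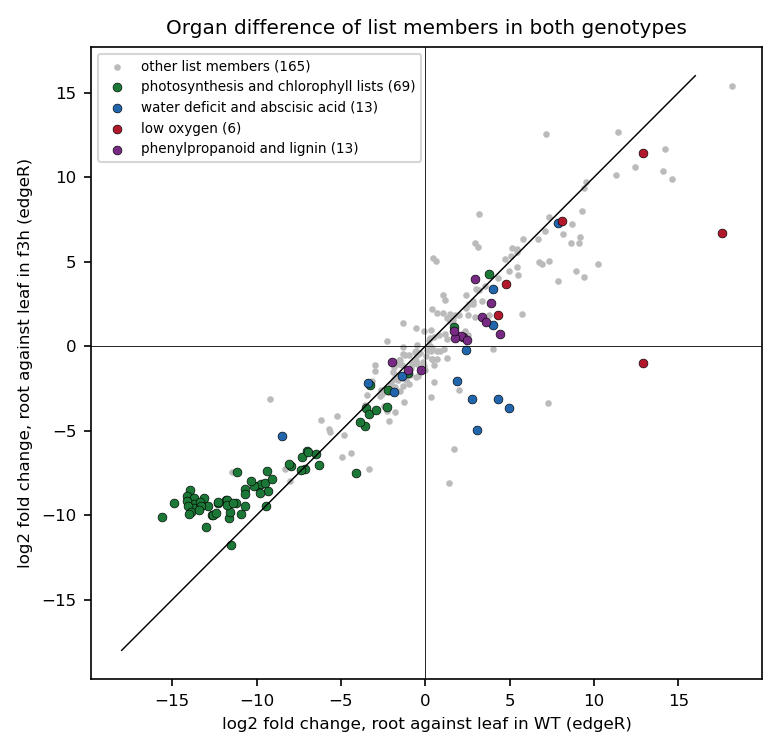
Log2 fold change of root against leaf (edgeR) in WT (horizontal) and in f3h (vertical) for the list members tested in both, with the line of equality. Members of the photosynthesis and chlorophyll lists at the lower left lie mostly above the line, low oxygen and phenylpropanoid genes lie mostly below it, and 6 of the 13 water deficit genes lie in the quadrant where root is higher in WT and leaf in f3h, of which P5CS1 leaves it on the scale of library totals.

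The photosynthesis genes had a smaller organ difference in f3h, and so had many leaf genes outside these lists. Of the 110 genes chosen above for a low WT root level, 108 had a higher root percentage of leaf in f3h than in WT, which their choice favours. The 73 of them in no list had a median of 0.237% in f3h, against 0.231% for the 36 members of the leaf lists. In light harvesting 12 of 13 genes passed with a more positive value in f3h, against 16% of all genes, with a median of 4.41, and in photosystems and electron transport 14 of 18, with 1 the other way. Without WT leaf replicate 1 these counts were 12 and 14. CAB2R had a log2 fold change of -8.54 in f3h and -13.93 in WT, a difference of 5.42 ± 0.16 (adjusted p = 7.14e-12), PETE one of -9.80 and -13.91 (difference 4.13 ± 0.17) and RCA one of -9.99 and -12.56 (difference 2.60 ± 0.18). RCABP89 and RCABP69 differed by 4.13 ± 0.18 and 5.30 ± 0.38. WT root held 1.31, 1.65 and 1.75 CPM of CAB2R and 0.365, 0.586 and 0.404 CPM of PETE, so these differences rest in part on root levels below 30 CPM in either genotype. Leaf levels differed as well, with CAB2R at 14533, 17503.5 and 18000.5 CPM in WT leaf against 5735, 5762 and 5652 CPM in f3h leaf. The light harvesting genes summed to 70968 to 86509 CPM in WT leaf and 50015 to 52471 CPM in f3h leaf. The Rubisco and Calvin cycle genes went the other way, at 25422 to 29161 and 31116 to 31710 CPM.

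HB2 had the largest difference between the genotypes among the named genes. It stood at 0.192, 0.0571 and 0 CPM in the WT leaf libraries and 938, 993 and 949 CPM in WT root, against 749, 845 and 739 CPM in f3h leaf and 633, 614 and 616 CPM in f3h root, so the f3h leaf libraries alone of the leaf libraries held it at a root level (difference -13.88 ± 0.27, adjusted p = 1.28e-13). HB1 had no count in WT leaf and was at least 32604-fold higher in WT root, where it stood at 989.7, 1002 and 945 CPM, whereas in f3h its log2 fold change was 6.71 (adjusted p = 6.75e-10 for the difference). ADH1 was higher in root by 4.31 in WT and 1.85 in f3h on the log2 scale (difference -2.43 ± 0.13). In all 4 of 6 low oxygen genes passed with a lower value in f3h and none with a higher one, against 17.4% of all genes, and 4 did without WT leaf replicate 1.

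The same direction was seen for phenylpropanoid and lignin genes, of which 10 of 15 had a lower value in f3h and 2 a higher one. COMT1 stood at 152, 156 and 158 CPM in WT leaf and 1199, 1344 and 1225 CPM in WT root, and at 237, 234 and 236 CPM in f3h leaf and 484, 489 and 489 CPM in f3h root (difference -2.03 ± 0.10, adjusted p = 1.2e-09). PIP1-3 (Os02g0823100), an aquaporin of the plasma membrane, stood at 44.1, 47.7 and 52.5 CPM in WT leaf and 1140.3, 1193 and 1110.2 CPM in WT root but at 339.7, 355 and 334 CPM in f3h leaf and 479, 472 and 469 CPM in f3h root, where it was not called (log2 -0.20 ± 0.05, 0.47 on the scale of library totals, difference -4.18 ± 0.12). NAAT1 (Os02g0306401), whose product is an aminotransferase that makes phytosiderophores, went the other way, with 75.5, 71.6 and 77.4 CPM in f3h leaf and 137, 149.8 and 152 CPM in f3h root against 83.4, 116 and 114 and 32.8, 29.3 and 34.9 CPM in the WT organs (difference 2.59 ± 0.16).

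Of the list members 8 were called in opposite directions, all of them higher in leaf in f3h and higher in root in WT. They were named after their values had been seen. In the water deficit list, where 9 of 14 genes had a lower value in f3h, these were RAB21, the dehydrin genes RAB16B (Os11g0454200) and RAB16C (Os11g0454000), LEA3 and the regulator DREB1B (Os09g0522000). RAB21 stood at 1.51, 0.999 and 1.74 CPM in WT leaf and 65.4, 66.1 and 65.1 CPM in WT root (log2 4.97), the reverse of f3h (difference -8.57 ± 0.28), and LEA3 at 1.41, 1.14 and 0.828 and 14, 14.2 and 13.9 CPM (difference -8.00 ± 0.44). RAB16B, RAB16C and DREB1B were below 2.1 CPM in each f3h library, with differences of -5.83 ± 0.72, -3.90 ± 0.87 and -7.38 ± 0.55. The f3h call of RAB16C was lost without f3h leaf replicate 2 or 3 or f3h root replicate 2 or 3. It was also lost on the scale of library totals (log2 -1.39). Genes of the RAB16 group are near copies and may share reads. The jasmonate repressor TIFY11A (Os03g0180800) stood at 16.8, 17.9 and 17.9 CPM in f3h leaf and 4.88, 3.40 and 5.60 CPM in f3h root, against 3.27, 5.14 and 6.24 and 27.5, 34.1 and 27 CPM in WT (difference -4.58 ± 0.31).

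The remaining opposite calls were loci of the nitrogen list whose names could not be checked. Os02g0770800 stood at 157, 162 and 176 CPM in f3h leaf and 0.233, 1.36 and 1.26 CPM in f3h root, against 0.321, 0.571 and 0.710 and 2.70, 1.46 and 2.16 CPM in WT (difference -9.45 ± 0.48). Os03g0291500 stood at 221, 259 and 222 CPM in f3h leaf and 35.9, 35.5 and 34.5 CPM in f3h root, against 0.385, 0.114 and 0.355 and 66.6, 65.3 and 64.8 CPM in WT (difference -10.65 ± 0.22, adjusted p = 1.49e-13). In both it was the f3h leaf libraries that stood above all others.

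Other lists also held many genes whose organ difference depended on the genotype. In phytoalexin synthesis 7 of 10 genes had a more positive value in f3h and 1 a more negative one. The balance was the other way for iron uptake, with 9 of 20 more negative and 2 more positive, for nitrogen, with 8 of 17 and 3, and for phosphate, with 7 of 14 and 1. Of the root cell type markers 1 gene was more positive and 2 more negative among 14, against a background of 33.4% for both directions together. Without f3h leaf replicate 3 there were 4 more negative, and without WT leaf replicate 3 none was more positive. The 2 phosphate genes more positive without WT leaf replicate 1 compare with 1 in the full set.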

How the data were processed

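RNA-seq of 12 rice libraries was used, 3 for each of 4 groups named in the labels. The files hold raw counts per gene that the authors deposited without normalizing them. The tools named, per the submitters' processing notes, were fastp, HISAT2, featureCounts and DESeq. Which genome build, annotation and strand setting served the counting is not given in the sources used here. Without strand, a gene and its antisense partner cannot be told apart.

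The tests used edgeR 4.0.16 under R 4.3.3 (filterByExpr, TMM, quasi-likelihood test, Benjamini-Hochberg adjustment, adjusted p threshold 0.05, log2 limit 1) on the 6 libraries of a genotype, and an interaction of genotype and organ on all 12 with no log2 limit. Standard errors were derived from the F statistic, and the procedure was tested on simulated data. Few genes changed in that simulation, by equal sizes up and down. It therefore does not cover an organ difference as wide as the one here. A count of 0 in a group was read as below 3 counts over its 3 libraries. Such floors, and the intervals, reflect counting error alone. An exact permutation test of 3 against 3 cannot give a two-sided p below 0.1 and was not used.

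Of 302 pairs of name and locus 198 could be checked against RefSeq by chromosome and rough place (assembly ASM3414082v1), and the others are given by locus or counted only. The members, lists and tests were chosen with earlier results of these data known, and 3 lists (water deficit and abscisic acid, jasmonate, antioxidant enzymes) were added after the files had been read. The rule for naming took the 10 largest differences in each direction among called genes whose libraries did not overlap and whose average log2 CPM was at least 1. It further took the 4 most abundant genes of a list, up to 6 in each direction with the smallest interaction p, up to 2 that go against their list, and up to 2 loci of each organ without a name. Alternatives were RLE and upper quartile normalization, no filter, DESeq2 1.42.0, limma voom (limma 3.58.1), a replicate block, all 12 libraries in 1 fit, each library left out and, chosen after seeing the data, scaling to library totals.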

Additional observations from a re-analysis of the deposited data

Results flagged for a closer look

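The genes below had an organ difference that differed between f3h and WT by the interaction test of edgeR's quasi-likelihood fit. Each value is the log2 fold change of root against leaf in f3h minus that in WT, with 3 libraries a group, and the adjusted p-values were at most 0.00274 (that of RAB16C). Among the photosynthesis genes the value was 5.42 for CAB2R, 5.30 for RCABP69, 4.13 for RCABP89, 4.13 for PETE and 2.60 for RCA, where f3h root held more of these transcripts than WT root. For CAB2R, RCABP69 and RCABP89 f3h leaf also held less than WT leaf. NAAT1, the nicotianamine aminotransferase, had a value of 2.59.

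In the low oxygen list the value was -13.88 for HB2 and -2.43 for ADH1. That of HB1 was fitted at -10.83, which depends on how a group at 0 is treated, since WT leaf had no count of it. PIP1-3, the aquaporin, had a value of -4.18 and the methyltransferase gene COMT1 one of -2.03.

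Genes called higher in leaf in f3h and higher in root in WT were RAB21 (-8.57), LEA3 (-8.00), DREB1B (-7.38), RAB16B (-5.83), RAB16C (-3.90), TIFY11A (-4.58), Os02g0770800 (-9.45) and Os03g0291500 (-10.65). The f3h call of RAB16C was lost under several alternatives. The groups held 3 libraries each, too few for a test of single outlying libraries.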

How the results depend on the processing

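The counts of called genes stayed within 1.5 times of those reported under every alternative run. In f3h 4278 to 6430 genes were higher in leaf and 6929 to 10439 higher in root. When 1 library was left out they were 5912 to 6105 and 7082 to 7345 in f3h, 5805 to 5885 and 7340 to 7819 in WT, and for the interaction 4125 to 5543 more negative and 3579 to 5041 more positive in f3h, with the highest values without WT leaf replicate 1. Scaling to library totals, chosen after seeing the data, moved the share of calls that were higher in root from 54.6% to 70.9% in f3h and from 56.6% to 70.7% in WT, and shifted the median log2 fold change by 0.66 and 0.57. Upper quartile normalization shifted it by 0.29 and 0.22.

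Of the named genes none that was called changed direction. A call needs a log2 fold change of at least 1 in size, and the scalings shifted the f3h median by at most 0.66. Scaling could therefore hardly reverse a called gene. Uncalled genes that turned from below 0 to above it on library totals were GI (0.35), IRO3 (0.15), PHR2 (0.27), PHR1 (0.43), PIP2-1 (0.051), D14 (0.53), D3 (0.35), P5CS1 (0.46), TIFY10B (0.11), OPR7 (0.11) and PIP1-3 (0.47), and with upper quartile normalization PHR1 (0.063), D14 (0.17), P5CS1 (0.094) and PIP1-3 (0.10). The 19 interaction values named kept their sign and stayed past the threshold under every alternative run on them. They had been chosen for the smallest interaction p or for opposite calls in these same libraries, so this follows in part from the choice. Of the 48 counts of list members in f3h 13 moved by over 1.5 times under at least 1 alternative, and of the 48 in the interaction 15 did. On library totals the genes higher in leaf fell to 2 in the clock list, 3 among aquaporins, 3 among antioxidant enzymes and 4 in the phosphate list, and those higher in root rose to 7 in the nitrogen list and 2 in the jasmonate list. With limma voom 5 Calvin cycle genes passed the interaction with a more positive value in f3h, against 9.

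Same-numbered leaf and root libraries did not deviate together, with r between -0.0082 and 0.0023 in f3h and between -0.030 and 0.057 in WT. For libraries of different number r lay between -0.0048 and 0.0069 in f3h and between -0.080 and 0.066 in WT. With 3 libraries an organ these values cannot tell whether the numbers pair the samples, which the labels do not state. With the replicate block 6929 genes were higher in root and 5831 higher in leaf in f3h, 7376 and 5622 in WT, and the interaction passed for 3374 more positive and 3931 more negative in f3h. The block also ended the f3h calls of CYP99A3 (log2 0.94) and RAB16C (log2 -2.52), and the cause was not tested.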

Other observations

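Called genes were spread over all chromosomes. The share called higher in f3h root ran from 26.3% of the tested genes on chromosome 2 to 33% on chromosome 11, and the share called higher in leaf from 21.5% on chromosome 11 to 25.3% on chromosome 9. Chromosome 11 had both the largest share higher in root and the smallest higher in leaf, with a median log2 fold change of 0.24, against 0.02 on chromosome 3. These shares were compared after their values had been seen and were not tested.

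Root transcripts in f3h leaf were examined in the same way as leaf transcripts in root. Of the 1817 genes with at least 100 CPM in the root of both genotypes, 64 were chosen because their WT leaf level was below 0.1% of the WT root level. In f3h the leaf level of these was 0.0355% of the root level at the median, with quartiles of 0.0120% and 0.302% and extremes of 0% and 125%. The upper extreme was that of HB2, whose f3h leaf level was above its root level.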
